A study of Mus musculus with 21 samples.

Results

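Complement is a system of blood proteins that tags and lyses cells. The described genes were C3, Cfb, Gm20547, C2, C4b, C5ar1, C8a, C9 and Cfi, 9 of the 46517 Ensembl genes counted in mouse hearts. C3, C2 and Cfb were chosen on measured values, because their counts were higher in all 3 Notch3-/- mice than in control mice. Gm20547 overlaps Cfb. Values of these 4 genes are therefore a description, with no test of genotype.

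Bulk RNA of the left ventricle was compared between 4 control (Notch3+/+) mice and 3 Notch3-/- mice, all c57bl/6j and aged 10 to 14 months. The Notch3-/- allele is a targeted lacZ insertion in the Notch3 gene. The sex of the mice is not given in the labels. Each mouse gave 3 technical libraries, 21 in all, whose counts were added up, making the mouse the replicate. Totals ran from 3046326 to 4638786 counts in the control group and from 3828763 to 5167869 in the Notch3-/- group. Counts from amplified reads without molecular identifiers are not independent molecules, so every floor given here covers counting error only.

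In the liver, hepatocytes make most complement proteins of the blood, while macrophages and other cells of many tissues make some of them locally. The routes of activation meet at C3: C4 and C2 form the convertase of the classical and lectin routes, and C3 with factor B (Cfb) forms that of the alternative route. Cleaved C5 then starts the assembly of C6, C7, C8 and C9 into a membrane pore, and factor I (Cfi) with its cofactors cleaves C3b and C4b. C5ar1 is the receptor for the C5 fragment C5a on myeloid cells.

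The labels were first checked with the targeted gene. Notch3 had 174, 200, 245 and 185 counts across the control group against 22, 36 and 25 across the Notch3-/- group. Values are in the order of the mice, control mice 1 to 4 and Notch3-/- mice 1 to 3. Every Notch3-/- mouse lay below the lowest control mouse, and the means were 6.10 ± 1.42 (SD, n = 3) against 54.7 ± 8.62 (SD, n = 4) counts per 1e+06 counts (CPM, normalized with TMM factors). It was the 1 gene called among 14324 tested (0.00698%) with edgeR's quasi-likelihood F-test at a Benjamini-Hochberg false discovery rate under 0.05 and a fold of at least 1.5 (log2 fold change -3.16, SE 0.23, adjusted p = 0.00173). The tissue label was checked with 6 cardiomyocyte genes. Their summed level was 17920 to 24920 CPM in control mice and 16210 to 24900 CPM in Notch3-/- mice, with the sarcomere gene Ttn the most abundant.

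Markers of another organ were high in 2 of the 3 Notch3-/- mice. The 17 hepatocyte genes summed to 150.5, 269.8, 42.4 and 90.5 CPM across the control group, against 7436, 13120 and 198 CPM across the Notch3-/- group. Notch3-/- mice 1 and 2 were high and mouse 3 lay within the control range. Mice 1 and 2 exceeded the highest control mouse in all 17, and mouse 3 in 7 of 17; over all 14324 genes tested, mouse 3 did so in 20.1%. Alb, the most abundant of them, had 68, 385, 10 and 32 counts across the control group against 6240, 8913 and 354 across the Notch3-/- group. edgeR called 0 of the 17 and DESeq2 16, against 3.29% of all genes to which DESeq2 gave an adjusted p called higher, and none was at 0 in all mice. The 5 Kupffer cell genes summed to 62.3, 81.2 and 27.6 CPM in Notch3-/- mice against 24.4 to 33.6 CPM in control mice. Folr2, the most abundant of them, went the other way, with 94, 102, 99 and 58 counts across the control group against 54, 74 and 106 across the Notch3-/- group (log2 fold change -0.50, SE 0.23, edgeR adjusted p = 0.49). The others were named after their values were seen. Clec4f had 0, 6, 7 and 2 counts across the control group against 83, 128 and 10 across the Notch3-/- group. For Cd5l these were 0, 0, 0 and 12 against 74, 145 and 1, and for Marco 0, 1, 0 and 0 against 6, 21 and 0. Timd4 had 8, 10, 8 and 1 against 11, 18 and 29. The part of liver-type RNA in the values that follow was not tested, and in bulk tissue more cells of a type and more RNA per cell cannot be told apart.

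**Figure D1:**
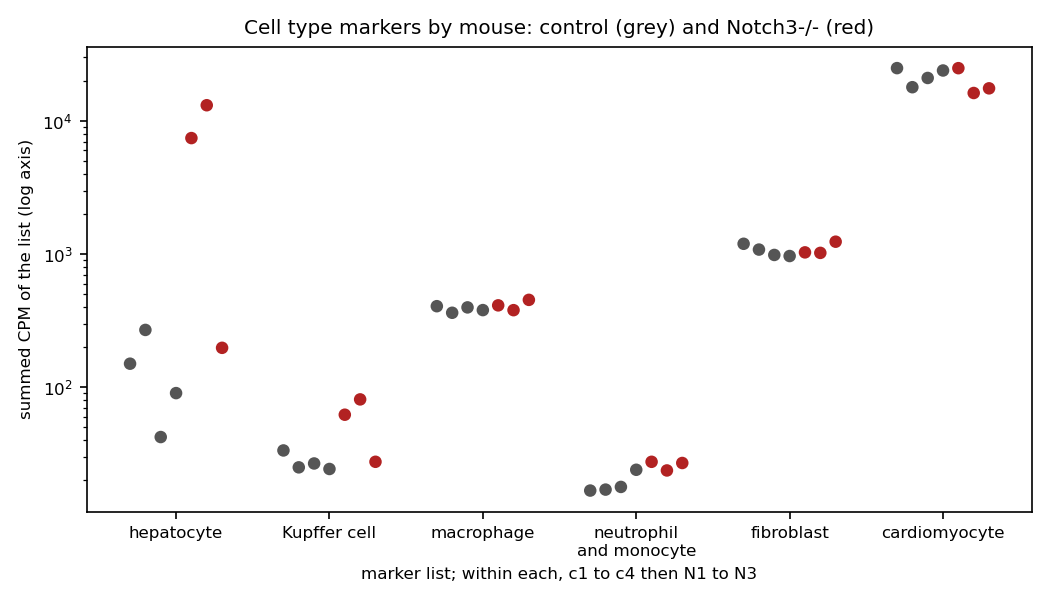
Summed CPM (log axis) of 6 lists of cell type markers in each mouse, control in grey and Notch3-/- in red. Hepatocyte genes summed to 7436 and 13120 CPM in Notch3-/- mice 1 and 2, against at most 269.8 CPM in control mice and 198 CPM in Notch3-/- mouse 3.

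C3, the central protein of the cascade (ENSMUSG00000024164, GRCm38 chr17:57203970-57228136, minus strand), had 1016, 945, 889 and 735 counts across the control group against 3145, 7414 and 2369 across the Notch3-/- group. Every Notch3-/- mouse was above every control mouse, as the choice of the gene fixed, and mouse 2 was the highest. Normalized, C3 was at 247 ± 61.6 CPM (SD, n = 4) in the control group against 859, 1559 and 448 CPM in the Notch3-/- group, or 3.48, 6.31 and 1.81 times the control mean. Notch3-/- mouse 3 was 1.34 times the highest control mouse. Its 3 libraries read 367 to 606 CPM while the 12 control libraries reached 392 CPM, so single libraries overlapped.

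Cfb, factor B (ENSMUSG00000090231, chr17:34856374-34862518, minus strand), had 36, 43, 62 and 42 counts across the control group against 826, 2624 and 197 across the Notch3-/- group. Mouse 3 was again the lowest of its group and still above every control mouse. The levels were 12.4 ± 2.51 CPM (SD, n = 4) in the control group against 225.7, 551.9 and 37.3 CPM in the Notch3-/- group, 18.2, 44.6 and 3.01 times the control mean. In Notch3-/- mouse 3 the libraries read 23.8 to 49.1 CPM, all above the highest control library at 22.1 CPM.

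Gm20547 (ENSMUSG00000092511, chr17:34856412-34882042, minus strand) is annotated over Cfb and part of C2. It had 39, 47, 65 and 48 counts across the control group against 827, 2682 and 213 across the Notch3-/- group, 1.00 to 1.14 times the count of Cfb in every mouse. Of its 3902 exon bases, 2246 lie in exons of Cfb (57.6%) and 1656 in exons of C2 (42.4%), on the same strand. Reads there cannot be assigned to 1 gene, so Gm20547 is uncertain and not an observation separate from Cfb.

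C2, the protease of the classical and lectin convertase (ENSMUSG00000024371, chr17:34862604-34898265, minus strand), had 9, 14, 10 and 11 counts across the control group against 65, 278 and 49 across the Notch3-/- group. The groups did not overlap, as its choice fixed. Levels were 2.98 ± 0.540 CPM (SD, n = 4) in the control group against 17.8, 58.5 and 9.27 CPM in the Notch3-/- group, 5.95, 19.6 and 3.10 times the control mean. In Notch3-/- mouse 3 the libraries read 2.10 to 12.2 CPM, with 3 counts in the lowest, and the control libraries 0 to 9.505 CPM, so single libraries overlapped. Exons of Gm20547 cover 42.8% of its 3872 exon bases.

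C4b, the thioester protein cleaved by C1s (ENSMUSG00000073418, chr17:34728380-34743882, minus strand), was not picked for this contrast. It had 140, 104, 124 and 112 counts across the control group against 442, 1879 and 415 across the Notch3-/- group. Every Notch3-/- mouse was above every control mouse, which held for 655 of 14324 genes tested (4.57%). The level was 33.6 ± 10.4 CPM (SD, n = 4) in the control group against 120.8, 395 and 78.5 CPM in the Notch3-/- group, 3.59, 11.7 and 2.33 times the control mean. The libraries of Notch3-/- mouse 3 read 55.2 to 105.7 CPM and the control libraries reached 57.4 CPM, a small overlap. The log2 fold change was 2.57 (SE 0.50) and did not pass edgeR's threshold (Benjamini-Hochberg adjusted p = 0.118), while DESeq2 called it (adjusted p = 0.00418). Over 15 alternative settings its adjusted p ran from 0.00134 to 0.885, with a call in 6. The near-identical gene C4a had 0, 3, 0 and 0 counts across the control group against 4, 83 and 2 across the Notch3-/- group, and how reads were divided between them is not given in the sources used here, so both levels are uncertain.

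**Figure D2:**
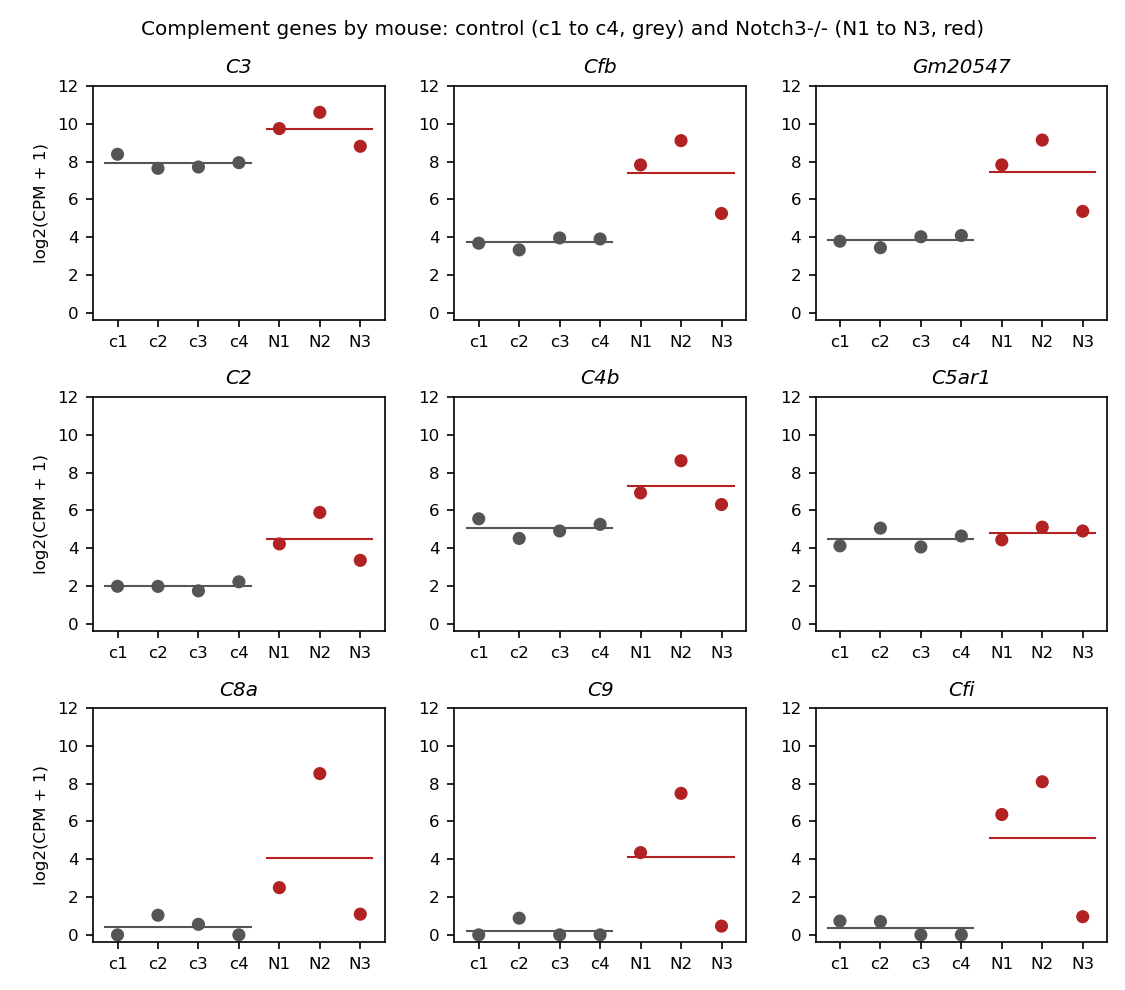
Level of each of the 9 genes in each mouse, as log2(CPM + 1), control mice c1 to c4 in grey and Notch3-/- mice N1 to N3 in red, with lines at the mean of each group on that scale. C3, Cfb, Gm20547, C2 and C4b were above every control mouse in N1, N2 and N3, as were 4.57% of all genes tested. For all of them but C4b, the choice of genes or an overlap with a chosen gene fixed this. C8a and Cfi were also above, but in N3 (6 and 5 counts) by less than counting error. C9 in N3 (2 counts) lay below c2 (4 counts), and C5ar1 overlapped.

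The receptor C5ar1 (ENSMUSG00000049130, chr7:16246743-16259540, minus strand) had 50, 154, 67 and 72 counts across the control group against 76, 160 and 154 across the Notch3-/- group. The groups overlapped, with control mouse 2 close to Notch3-/- mouse 2. In Notch3-/- mouse 1, 66 of the 76 counts came from 1 library, and its libraries read 2.95 to 36.2 CPM, so its level is uncertain. Levels were 22.2 ± 7.81 CPM (SD, n = 4) and 27.9 ± 6.54 CPM (SD, n = 3), a log2 fold change of 0.33 (SE 0.29, edgeR adjusted p = 0.736). The sum of 7 macrophage genes was 362.9 to 406.7 CPM in control mice and 379.7 to 453.7 CPM in Notch3-/- mice.

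The remaining genes were near 0 in control mice and did not pass the expression filter, which 6 of the 9 genes passed. C8a, the alpha chain of C8 (ENSMUSG00000035031, chr4:104815679-104876398, minus strand), had 0, 5, 2 and 0 counts across the control group against 17, 1754 and 6 across the Notch3-/- group. Only Notch3-/- mouse 2 stood far above the control mice, since 6 counts in mouse 3 and 5 in control mouse 2 differ by less than counting error. Its 3 libraries read 352.7 to 365 CPM, while those of mouse 1 read 0 to 8.78 CPM.

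C9, which forms the ring of the pore (ENSMUSG00000022149, chr15:6445327-6498751, plus strand), had 0, 4, 0 and 0 counts across the control group against 71, 847 and 2 across the Notch3-/- group. Mice 1 and 2 were high and mouse 3 differed from control mouse 2 by less than counting error. A count of 0 allows up to 3 counts, 0.988 CPM in control mouse 1, 0.706 in control mouse 3 and 1.00 in control mouse 4. Cfi, factor I (ENSMUSG00000058952, chr3:129835884-129875332, plus strand), had 2, 3, 0 and 0 counts across the control group against 298, 1298 and 5 across the Notch3-/- group. As for C9, Notch3-/- mice 1 and 2 were high, and the 5 counts of mouse 3 lay within counting error of the control mice.

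Tests of these 3 genes came from fits with more genes. With every gene that had at least 1 count, edgeR's quasi-likelihood F-test gave adjusted p = 0.00786 for C8a, 0.00465 for C9 and 0.00275 for Cfi (Benjamini-Hochberg, 28790 genes, of which 639, or 2.22%, were called). DESeq2 gave adjusted p = 0.0296 for C9 and 0.00125 for Cfi and none for C8a. Few settings gave these genes a value, and 1 of them, with only mice whose labels start with k, gave 0.734 for all 3. C8a was called in 2 of 3 alternative settings, and C9 and Cfi in 3 of 4. For each of the 3 genes, 1 of these calls came from the fit without Notch3-/- mouse 3. There the gene passed the filter only through Notch3-/- mice 1 and 2, so that call adds no support. The same holds for the DESeq2 calls of C9 and Cfi, which had 4 and 5 counts in all control mice together. Their mean count, on which DESeq2 filters, came almost only from Notch3-/- mice 1 and 2. The fit with every gene used no such filter, but its calls rest on the same mice. The high counts were in Notch3-/- mice 1 and 2 (for C8a in mouse 2, with 1754 counts against 17 and 6 in the other 2, so its result rests on 1 mouse), where the hepatocyte genes were also high.

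Per kilobase of exon, C3 was the highest of the 9 genes in control mice, at 48.0 CPM per kb (38.7 to 65.1 over 4 mice). C5ar1 (8.63, SD 3.04), C4b (5.91, SD 1.83), Cfb (4.38, SD 0.888) and Gm20547 (3.46, SD 0.709) followed, and the ranges of neighbours in that order overlapped over mice. C2 was lower, at 0.771 CPM per kb (SD 0.140). Cfi, C8a and C9 were at 0.145, 0.105 and 0.0824 CPM per kb, each with mice at 0, and cannot be ordered.

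In Notch3-/- mouse 3 the hepatocyte genes summed to a level within the control range, though their median lay 1.56 above the control mean in log2 CPM. C4b was 1.26 above it in this mouse. C3, C2, Gm20547 and Cfb were 0.89 to 1.57 above it, a direction that their choice fixed. C8a and Cfi were 1.08 and 0.95 above it, from the 6 and 5 counts given above, so the size of the difference alone does not set C3 apart from them. The highest control mouse was 1.00 above it for C8a, 0.63 for Cfi and 0.47 for C3. C3, Cfb, Gm20547, C2 and C4b lie on chromosome 17, as does Notch3 (chr17:32120820-32166852): C4b starts 2.56 megabases and C3 25.0 megabases beyond it. C5ar1, C8a, C9 and Cfi lie on other chromosomes.

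Genes around them were compared in the same mouse. Of 15 other tested genes within 100 kb of the C4b to C2 block, 4 were above every control mouse in Notch3-/- mouse 3, against 20.1% of all genes tested. These 4, Stk19, Dxo, Skiv2l and Nelfe, lie between C4b and Cfb. They were 0.45, 0.46, 0.45 and 0.23 above the control mean in log2 CPM, less than the 1.26 of C4b. They were also below Cfb and C2, but those were picked for higher counts in all 3 Notch3-/- mice. That difference is therefore partly built in, and only C4b is a comparison that the choice did not fix. Nelfe was the 1 neighbour above every control mouse in all 3 Notch3-/- mice (edgeR adjusted p = 0.497). Log2 fold changes of the 15 ran from -1.61 to 0.38, with a median of -0.11. Around C3 the 3 tested neighbours were Gpr108, Trip10 and Vav1, with log2 fold changes of -0.10, -0.23 and 0.83. In mouse 3 Vav1 was above every control mouse and 1.05 above the control mean in log2 CPM, more than C3, and the other 2 were not above every control mouse. Genes in this paragraph were taken by position and named after their values were seen.

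**Figure D3:**
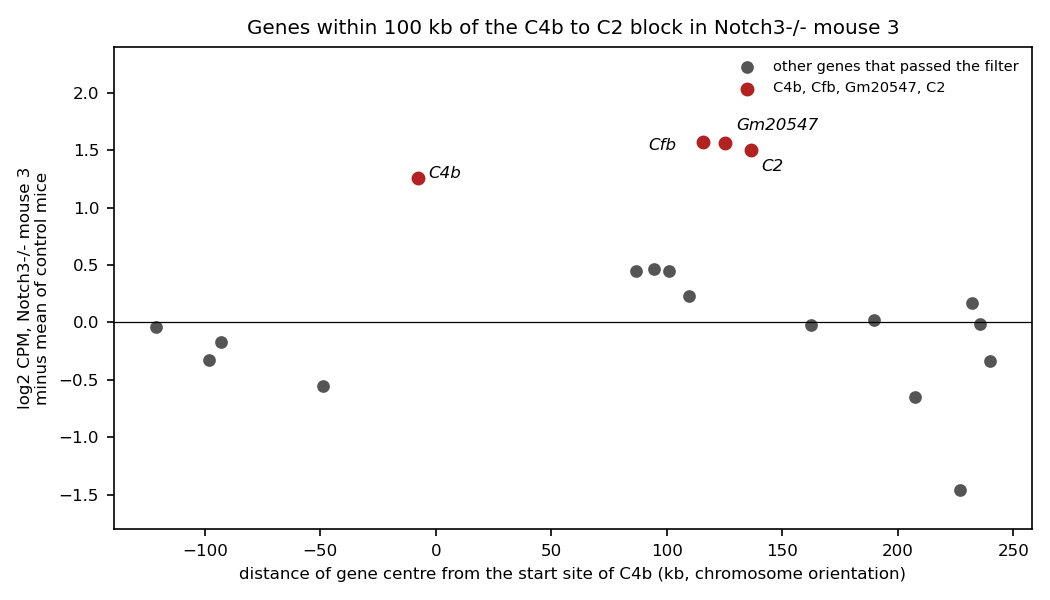
Difference in log2 CPM between Notch3-/- mouse 3 and the control mean, for tested genes within 100 kb of the C4b to C2 block, against distance from the start of C4b (kb). C4b, Cfb, Gm20547 and C2 (red) were 1.26 to 1.57 above the control mean, and the 15 other genes (grey) at most 0.46 above it. Cfb and C2 were picked for higher counts in all 3 Notch3-/- mice and Gm20547 overlaps them, so only C4b is a comparison that the choice did not fix.

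Upstream sequences were at hand in RefSeq (GRCm38.p6) for 4 of the 9 genes, C3, C5ar1, C8a and C9. Shown are the 250 bases before the start of C3, whose counts were higher in all 3 Notch3-/- mice, and of C8a and C9, whose counts were higher in mice 1 and 2, 5′ to 3′ on the gene's strand. Starts are those of the RefSeq file, and those of C9 and C5ar1 lie inside the genes as placed above, so part of these 2 windows does too. The 3 windows shown lie at chr17:57228137-57228386 (minus), chr4:104876399-104876648 (minus) and chr15:6445096-6445345 (plus).
C3: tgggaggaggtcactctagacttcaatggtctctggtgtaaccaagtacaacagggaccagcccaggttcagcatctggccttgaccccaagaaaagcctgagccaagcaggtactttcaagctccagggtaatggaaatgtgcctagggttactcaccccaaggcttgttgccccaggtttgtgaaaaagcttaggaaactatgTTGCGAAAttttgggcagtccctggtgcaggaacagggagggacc
C8a: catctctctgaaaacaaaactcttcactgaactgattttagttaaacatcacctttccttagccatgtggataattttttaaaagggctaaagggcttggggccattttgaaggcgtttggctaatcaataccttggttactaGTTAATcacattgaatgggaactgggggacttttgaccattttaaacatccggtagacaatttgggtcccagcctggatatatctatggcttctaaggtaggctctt
C9: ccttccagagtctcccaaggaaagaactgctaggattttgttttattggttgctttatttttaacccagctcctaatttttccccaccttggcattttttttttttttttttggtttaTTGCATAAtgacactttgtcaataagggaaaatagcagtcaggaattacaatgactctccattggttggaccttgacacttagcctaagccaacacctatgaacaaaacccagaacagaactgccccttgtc

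Capitals mark matches, on either strand, to TTGCNNAA (the core of C/EBP sites) or GTTAAT (part of HNF1 sites), both bound by factors of liver and other cells. C3 held TTGCNNAA from base 45 before its start and C9 from base 132, as did 9.55% of 27025 promoters of this length. C8a held GTTAAT from base 107, as did 6.52% of them. TATAAA (13.0% of promoters) and a pair of GAAA 2 bases apart, from interferon-responsive elements (3.04%), had no match in these 3 windows, and none of the 4 matched in the C5ar1 window, most of which lies inside that gene as placed above. A match is a string of letters, not a shown binding site.

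Other genes of the cascade were taken from a list of 50, of which 30 passed the expression filter. None was called by edgeR, 10 were higher and 0 lower at an unadjusted p under 0.05, against 7.34% and 3.05% of all genes tested, and DESeq2 called 11 of the 41 to which it gave an adjusted p, all higher (3.29% of all genes with an adjusted p were called higher). Their median log2 fold change was 0.39, and -0.0028 over all genes tested. In mouse 3, 5 of the 30 were above every control mouse, against 20.1% of all genes tested. In mice 1 and 2, where the hepatocyte genes were high, 17 and 15 were, against 23.9% and 29.3%. The smallest edgeR adjusted p of the 10 was 0.126 (C8g).

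Among recognition genes, 5 of 10 tested were in the 10: C1ra, C1rl, C1s1, Masp1 and Masp2, proteases of the classical and lectin routes and a relative. Masp2 had 11, 20, 21 and 12 counts across the control group against 136, 703 and 23 across the Notch3-/- group. Mice 1 and 2 were high and mouse 3 was not. C1qa, C1qb and Colec11, the other abundant genes of this group, were at 68.4 ± 9.93, 85.3 ± 15.9 and 33.5 ± 4.54 CPM (SD, n = 4) in control mice and 80.0 ± 2.46, 89.9 ± 4.16 and 27.7 ± 6.51 CPM (SD, n = 3) in Notch3-/- mice, with overlapping groups. Fcnb was at 0 in all mice.

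Of convertase genes other than the described ones, 1 of 4 was tested, Cfp, with a log2 fold change of 0.23 (SE 0.23). Hc, which encodes C5, had 0, 2, 0 and 2 counts across the control group against 191, 1149 and 2 across the Notch3-/- group. Like C9 and Cfi it was high in Notch3-/- mice 1 and 2.

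Regulators other than Cfi numbered 18, of which 11 were tested; Vtn and Cpn2 were in the 10. Vtn, vitronectin, which blocks pore assembly, had 174, 261, 228 and 209 counts across the control group against 1079, 3314 and 287 across the Notch3-/- group. Notch3-/- mouse 3 was at 54.3 CPM, within the control range of 53.6 to 69.8 CPM. Clu, Serping1 and Cd59a had log2 fold changes of -0.11 (SE 0.11), 0.47 (SE 0.21) and -0.21 (SE 0.15), and Cd55b was at 0 in all mice. Of 8 receptors other than C5ar1, 6 were tested and 1, Vsig4, the macrophage receptor for C3b, was in the 10. Vsig4 had 15, 10, 16 and 11 counts across the control group against 33, 52 and 34 across the Notch3-/- group, above every control mouse in all 3 (edgeR adjusted p = 0.23). This held for 3 of the 30 other complement genes tested, C1rl and Cd55 among them, and for 4.57% of all genes tested. Cd93, Itgb2 and C3ar1 had log2 fold changes of 0.30 (SE 0.20), 0.50 (SE 0.24) and 0.15 (SE 0.23).

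**Figure D4:**
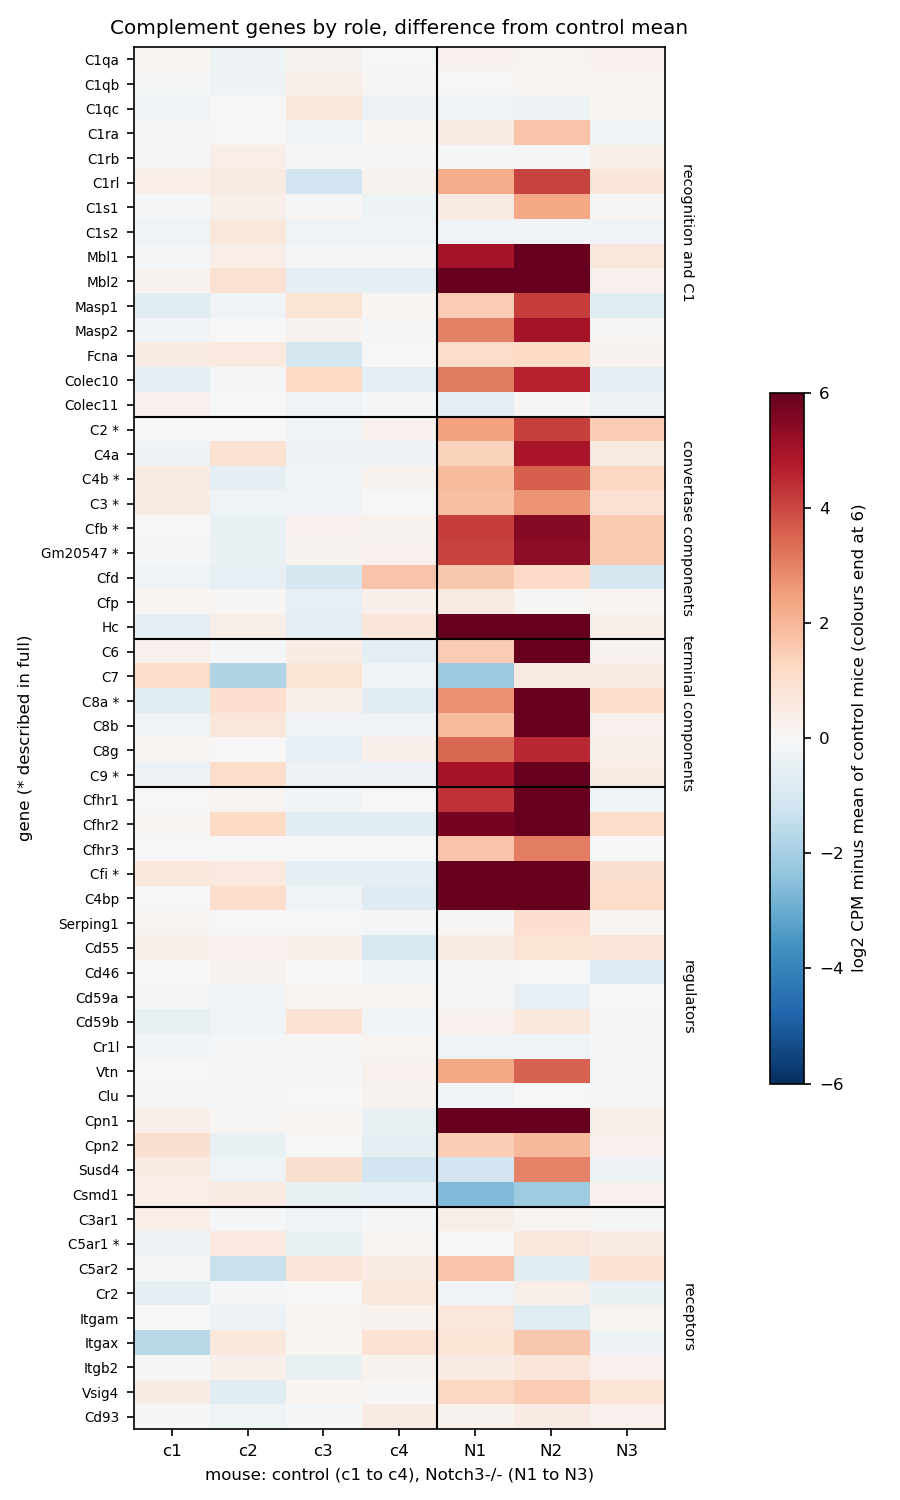
Difference in log2 CPM from the mean of the control mice, for complement genes with any count, in each mouse (c1 to c4 control, N1 to N3 Notch3-/-), in blocks by role. The high values of N1 and N2 were not seen in N3 for most genes, and the highest value in N3 was that of Cfb, 1.57 above the control mean, followed by Gm20547, C2 and C4b at 1.56 to 1.26, C4bp at 1.10, Cfhr2 at 1.09, C8a at 1.08, Cfi at 0.95 and C3 at 0.89.

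Terminal components differed between Notch3-/- mice 1 and 2. C8a had 17 counts in mouse 1 and 1754 in mouse 2, C8b 6 and 732, C6 11 and 932, and C9 71 and 847. In CPM these were 79.4, 93.9, 65.2 and 9.18 times higher in mouse 2, and the first 3 folds are uncertain in size because the counts of mouse 1 are few; 16 of its 17 for C8a came from 1 library. By the same ratio the 17 hepatocyte genes lay between 1.10 and 2.66 (median 2.12), C4bp (named after its values were seen) at 6.78, Hc at 4.63, Cfi at 3.35, C4b at 3.27, C2 at 3.29, Cfb at 2.45 and C3 at 1.81. C8g, the gamma chain of C8, was at 2.08, and had 29, 40, 25 and 32 counts across the control group against 355, 959 and 56 across the Notch3-/- group. C7 had 29, 4, 33 and 11 counts across the control group against 2, 30 and 32 across the Notch3-/- group. Of the 4 terminal genes other than C8a and C9, 2 were tested, and C8g was in the 10.

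Genes that mark sex were looked up after these values were seen. Xist had 1729 counts in Notch3-/- mouse 1 and 1128 in control mouse 2, and 2 to 25 in the other mice. Y-linked Ddx3y had 1 and 4 counts in those 2 mice and 288 to 705 in the others. Liver genes known to be higher in male mice (Elovl3, Cyp2d9, Hsd3b5) summed to 4.10 CPM in Notch3-/- mouse 1 and 377.5 CPM in mouse 2, and those higher in female mice (Sult2a1, Cyp2b9) to 161 and 1.68 CPM. Whether sex bears on C6, C8a, C8b and C9 was not tested, since 1 mouse of each kind held high liver-type RNA.

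**Figure D5:**
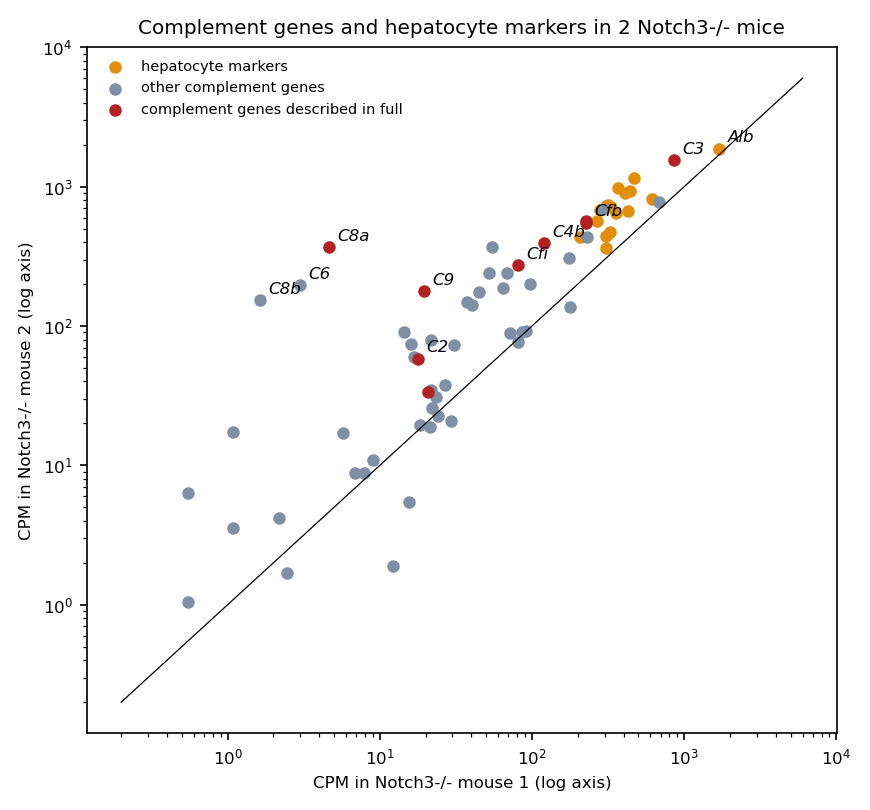
CPM in Notch3-/- mouse 1 against Notch3-/- mouse 2 (log axes) for complement genes and 17 hepatocyte genes with a count in both mice, with the line of equal values. C8a, C8b and C6 lie 65.2 to 93.9 times higher in mouse 2, from 6 to 17 counts in mouse 1, and the hepatocyte genes 1.10 to 2.66 times higher.

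The genes most like C3, C4b and C9 over the 7 mice were found by the root mean square difference in log2 CPM relative to the control mean, among 14081 genes. For C3 they were Tmem37 (0.246), Shmt1, Khk, Sdr42e1 and Sema4a (0.327). For C4b they were Cideb (0.355), Hykk, C3, Acaca and Igf1 (0.405), and for C9 H2-Q10 (0.647), Cbs, Mettl7b, Scd1 and Lcat (0.717). Of these 15 entries, C3, H2-Q10 and Cbs lie on chromosome 17, and the share of all genes on it was not counted. In Notch3-/- mouse 3 the log2 difference from the control mean was 0.33 for Tmem37 and 0.58 for Cideb, below the 0.89 of C3 and the 1.26 of C4b, and 0.60 for H2-Q10, above the 0.47 of C9. C3 was picked for higher counts in all 3 Notch3-/- mice, so its place above Tmem37 is partly built in.

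Other lists gave the surroundings of these values. For 8 interferon-induced genes the median log2 fold change was 0.59, with 3 higher at an unadjusted p under 0.05, against 7.34% of all genes tested. In Notch3-/- mice 1, 2 and 3, 1, 7 and 5 of them were above every control mouse, against 23.9%, 29.3% and 20.1% of all genes tested. Of 7 acute phase genes 2 were tested, and Hp had 49, 15, 3 and 4 counts across the control group against 652, 2409 and 15 across the Notch3-/- group, high in mice 1 and 2 as the hepatocyte genes were. The 7 fibroblast genes (most abundant Dcn), 7 neutrophil and monocyte genes (Ccr2) and 5 adipocyte genes (Fabp4) summed to 967.9 to 1196, 16.8 to 24.1 and 206.7 to 308 CPM in control mice and to 1022 to 1240, 23.8 to 27.6 and 209.7 to 223.5 CPM in Notch3-/- mice.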

How the data were processed

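The values are counts, whole numbers of reads per Ensembl gene that the authors deposited without normalization; reads were single, and the submitters' processing notes name CASAVA and mm10. The aligner, counting program, strand setting and treatment of duplicates are not given in the sources used here. The table held 46609 lines, of which 92 ERCC lines with 34 counts were dropped, and every column was used. Coordinates and symbols came from GENCODE vM21 on GRCm38, and 512 identifiers had no symbol. Technical libraries were summed per mouse. The test of genotype used edgeR 4.0.16 in R 4.3.3 (filterByExpr, TMM, quasi-likelihood F-test, Benjamini-Hochberg over all genes tested) and, as an alternative, DESeq2 1.42.0. Log2 CPM used a prior count of 2. Members and lists were chosen with earlier results of these data known. Named genes were the described 9, Notch3, complement genes at an unadjusted p under 0.05 or among the 4 most abundant tested of their role, the most abundant marker of each list, and the 5 genes most like C3, C4b and C9, the last with at least 10 counts per mouse on average; some genes these rules take in are not reported here. The steps were tested on simulated data. Alternatives were RLE factors, no filter, each mouse left out, mice with labels starting with k, and single technical libraries; Notch3-/- mouse 3 alone and the sex-linked and sex-biased genes were added after seeing the data.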

Additional observations from a re-analysis of the deposited data

Results flagged for a closer look

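In 9 of 53 looked at values, 1 of the 4 control mice stood far from the other 3, which chance gives in about 1 of 20 groups. C9 was at 0.843 CPM in control mouse 2, from 4 counts, and at 0 in the others. Cd93 was at 88.8 CPM in control mouse 4 (52.7 to 58.1 in the others), which also had a neutrophil and monocyte sum of 24.0 CPM (16.8 to 17.9). Control mouse 1 was high in Serping1 at 242 CPM (206 to 212), C3ar1 at 22.1 CPM (14.4 to 15.6), Hp at 16.1 CPM (0.706 to 3.16) and the acute phase sum at 18.4 CPM (8.35 to 9.65). The male-biased liver genes summed to 1.90 CPM in control mouse 2 and the female-biased ones to 0.988 CPM in control mouse 1, each to 0 in the others. For C9 and these 2 sums 3 mice were at 0, so any count in the fourth would be flagged, and the share given by chance does not apply.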

How the results depend on the processing

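No paired analysis was possible because the labels' technical replicate numbers number libraries within a mouse and mice carry no shared numbers. RLE factors changed no count of calls. The count of genes called, 1, became 597 with DESeq2, 639 with every gene that had at least 1 count, 0 in mice with labels starting with k, and 48, 39 and 77 with technical library 1, 2 or 3 alone. In mice labelled k Notch3 lost its call (edgeR adjusted p = 0.206), but its log2 fold change was -3.29, against -3.16 in the main fit. Leaving out 1 mouse gave 1 to 936 called genes, the 936 without Notch3-/- mouse 3. Other complement genes called, 0, became 11, 13, 3 and 1 with DESeq2, every gene, library 1 and library 3, and 0 to 18 with 1 mouse left out. Those higher at an unadjusted p under 0.05, 10, became 19 with DESeq2, 23 with every gene, 6 with library 2, 0 with Notch3-/- mouse 3 alone (added after seeing the data) and 6 to 21 with 1 mouse left out, the 21 without Notch3-/- mouse 3, where 39 passed the filter and not 30, and those lower, 0, became 0 to 1. The median log2 fold change of other complement genes, 0.39, was 0.78 with DESeq2, 0.79 with every gene, 0.89 in mice labelled k, 0.12 with Notch3-/- mouse 3 alone and 0.27 to 0.87 with 1 mouse left out. The cause of these shifts was not tested; the settings change the test, the genes, the mice or the libraries used.

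Log2 fold changes turned sign in uncalled genes. Lyz2 was at -0.00059 with DESeq2, -0.0023 with RLE factors, -0.013 with every gene, -0.13 in mice labelled k, -0.14 and -0.072 with libraries 2 and 3, and -0.086 to 0.058 with 1 mouse left out. C1qb was at -0.12 in mice labelled k, -0.090 and -0.13 with libraries 2 and 3, and -0.023 to 0.19 with 1 mouse left out. C7 was at 0.26 with library 2, 0.18 with Notch3-/- mouse 3 alone and -0.67 to 0.20 with 1 mouse left out, and Ttn at -0.36 to 0.036. C5ar1 was at -0.0053 and Cd59a at 0.097 with library 1, C1qa at -0.15 with library 2, and C3ar1 at -0.011 with library 3 and -0.076 with Notch3-/- mouse 3 alone. With that mouse alone C1ra was at -0.27, Masp1 at -0.93, Vtn at -0.11 and Hp at -0.85. Of 499 comparisons of named genes 430 kept their direction and side of the threshold or, for the 4 untested genes, moved by less than 1 SD.

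Depth limits C8a, C9 and Cfi in control mice and in Notch3-/- mouse 3, where 0 to 6 counts were seen. In that mouse the fold changes of C3, Cfb, Gm20547 and C2 moved to 0.86, 1.60, 1.58 and 1.64 in log2 (C2 also to 2.17 without Notch3-/- mouse 2), that of C4b went from 2.57 to 1.24, and to 1.57 without Notch3-/- mouse 2, and the lone mouse is assumed to vary like the control mice.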
